A study of Homo sapiens with 14 samples.

Results

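The enzymes described here place or remove methyl groups on histone lysines and arginines, remove acetyl groups from histones, or methylate and demethylate cytosines in DNA. They were chosen by gene symbol alone, as the KMT, KDM, SETD, SMYD, PRMT, HDAC, SIRT, EZH, DNMT and TET families, and 75 genes met the rule among 24199 features of the DU145 table and also among 44591 genes of the LNCaP table. KDM5D lies on the Y chromosome and is counted among the 75, and no value of it is given. The remaining 74 genes fall into 18 classes by the residue or mark they act on.

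RNA was sequenced from 2 prostate cancer cell lines. DU145 cells carried a stable lentiviral short hairpin RNA against PAX6 (shPAX6, 3 libraries) or a non-target hairpin (shCON, 3 libraries), after puromycin selection in both groups, and the hairpin sequence used for the libraries was not given in the sources used here. LNCaP cells were compared with a single library for each arm, namely parental cells and LNCaP-ENZ, a resistant subline kept in 20 µM of enzalutamide for 30 days per the series text, a drug used against prostate cancer. PAX6 is a neural transcription factor, and the study asked how it and STAT5A act on chromatin and on the neuroendocrine state of prostate cancer cells. The labels do not say that the DU145 libraries came from separate cultures, so the p-values measure the spread between these libraries, which may be technical. The LNCaP difference has no replicate check.

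Methylation of histone H3 at lysine 4 or 36 accompanies transcription, whereas methylation of H3 at lysine 9 or 27 and of H4 at lysine 20 is found in silent or compacted chromatin. KMT5A puts the first methyl group on H4 lysine 20, and KMT5B and KMT5C extend it to the di- and trimethyl state. SMYD5 has also been assigned to H4 lysine 20 trimethylation, and these 4 enzymes are treated first because the study followed that mark.

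In DU145 cells the knockdown was visible in the target. PAX6 was measured at 0.839, 1.23 and 1.57 FPKM (fragments per kilobase of transcript, scaled to library size) in shCON and at 0.0153, 0.274 and 0.0778 FPKM in shPAX6. All shPAX6 values lay below all shCON values, with a log2 fold change of -2.69 and an adjusted p of 0.0539 (limma). STAT5A, a cytokine-responsive transcription factor, was at 6.39, 5.68 and 6.80 FPKM in shCON and at 1.99, 2.91 and 2.82 FPKM in shPAX6, and fell by 1.27 on the log2 scale (limma, adjusted p = 0.0423). The epithelial keratins KRT8 and KRT18 were between 492 and 993 FPKM in all 6 libraries. The basal markers KRT5, KRT14 and TP63 were listed at 0 in each of them, and so were the leukocyte markers PTPRC and CD3E. LYZ, a marker of myeloid leukocytes, was listed at 0 in 3 libraries and reached at most 0.0830 FPKM, and CD14, another myeloid marker, was at 0.749, 0.845 and 0.908 FPKM in shCON and 0.922, 0.426 and 0.353 FPKM in shPAX6. In LNCaP the prostate luminal marker KLK3 had 1817 counts in parental cells and 1186 in LNCaP-ENZ, while PAX6 had 11 and 4 counts and STAT5A 6 and 1. Totals were 20468001 and 17945722 counts, so that 3 counts, the level taken as the floor, correspond to 0.147 and 0.167 CPM (counts scaled to the library total). In bulk RNA, fewer cells expressing a gene and less RNA per cell cannot be told apart.

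STAT5 dimers bind the palindrome TTCNNNGAA, which was searched in RefSeq promoters of build GRCh38.p14, from 250 bases before to 50 bases after each start. Entries were present for 71 of the 74 members, and 2 of these, HDAC4 and HDAC8, held the motif (2.82%), against 9.38% of all 27305 genes with a promoter entry. The 150 bases before the start are shown for KMT5C and SMYD5, the H4 lysine 20 enzymes with 1 annotated start each, and for HDAC8, with the motif in capitals where present. They lie at chr19:55339726-55339875 (plus strand), chr2:73214095-73214244 (plus strand) and chrX:72572844-72572993 (minus strand).
KMT5C: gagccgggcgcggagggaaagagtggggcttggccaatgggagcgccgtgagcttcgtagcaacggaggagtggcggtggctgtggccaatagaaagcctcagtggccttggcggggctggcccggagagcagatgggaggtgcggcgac
SMYD5: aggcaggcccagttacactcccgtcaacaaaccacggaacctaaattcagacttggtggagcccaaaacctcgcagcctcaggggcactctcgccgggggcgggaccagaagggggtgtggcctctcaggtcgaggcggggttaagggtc
HDAC8: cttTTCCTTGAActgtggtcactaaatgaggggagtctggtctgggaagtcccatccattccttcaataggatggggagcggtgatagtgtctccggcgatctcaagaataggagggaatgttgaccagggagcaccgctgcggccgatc
The stretches of KMT5C and SMYD5 hold no match. This says only that these letters are not in the windows searched. HDAC8, a class I histone deacetylase, was at 7.39, 7.45 and 6.30 FPKM in shCON and at 9.89, 7.20 and 8.93 FPKM in shPAX6, where 1 shPAX6 library lay within the shCON range, and its log2 fold change of 0.29 did not pass the test (limma, adjusted p = 0.450). HDAC4, the other gene with the motif, was at 2.91, 2.98 and 3.80 FPKM in shCON and at 1.43, 3.43 and 2.08 FPKM in shPAX6, with overlap between the groups.

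Of the 4 H4 lysine 20 enzymes, 0 passed the adjusted test between shCON and shPAX6. KMT5C (chromosome 19, 55851221 to 55859489 in GRCh37, plus strand) was at 5.03, 6.43 and 7.57 FPKM in shCON and at 8.02, 4.40 and 6.84 FPKM in shPAX6. The groups overlapped fully. The log2 fold change of -0.0067 had a 95% interval from -0.63 to 0.61 and an adjusted p of 0.994 (limma), and its sign depended on the scaling. With a correction of each library for transcript GC content the difference was 0.41 and also did not pass (adjusted p 0.218).

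SMYD5 (chromosome 2, 73441350 to 73454349, plus strand) was the steadiest of the 4, at 34.7, 32.9 and 35.6 FPKM in shCON and 34.1, 34.05 and 36.1 FPKM in shPAX6. Its log2 fold change was 0.014 with an interval from -0.26 to 0.28, so that a change of the transcript beyond these bounds was not seen at this spread. KMT5B (chromosome 11, 67922330 to 67981319, minus strand) was at 4.69, 3.58 and 4.15 FPKM in shCON and 4.35, 5.00 and 4.28 FPKM in shPAX6, again with overlap and a log2 fold change of 0.14 (interval -0.30 to 0.57).

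KMT5A (chromosome 12, 123868679 to 123893900, plus strand) differed from the other 3. It was at 23.0, 21.2 and 21.9 FPKM in shCON and at 15.3, 15.97 and 19.7 FPKM in shPAX6, with every shPAX6 value below every shCON value. The log2 fold change was -0.38 (SE 0.15, interval -0.72 to -0.04, unadjusted p = 0.0334 in limma), and after adjustment over all 13574 features tested it did not pass (limma, adjusted p = 0.231). The ratio of KMT5C to KMT5B was 1.07, 1.80 and 1.82 in shCON and 1.84, 0.880 and 1.60 in shPAX6, an overlap without a clear order (exact permutation test, two-sided, p = 0.7, where the smallest p that 3 against 3 libraries allow is 0.1).

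**Figure D1:**
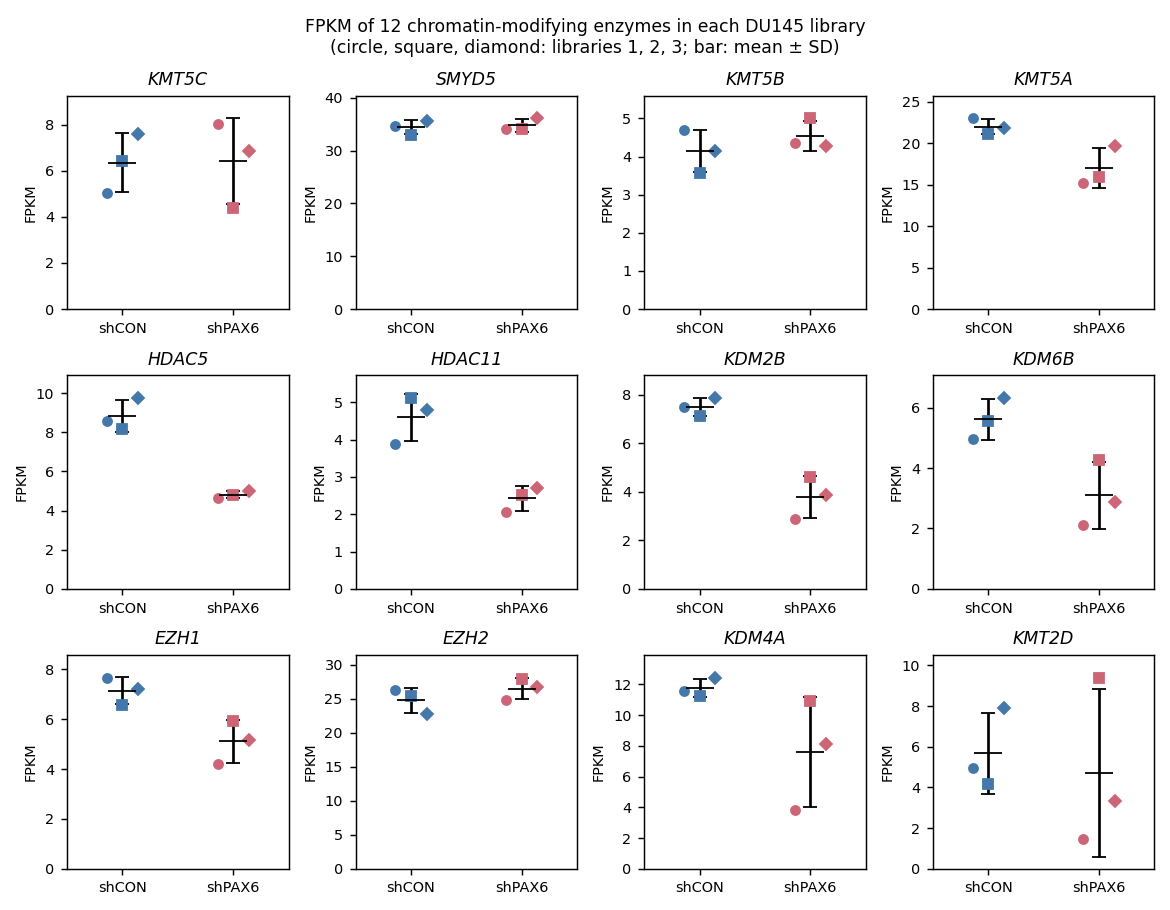
FPKM of 12 enzymes (vertical axes, each from 0) in the 3 shCON and 3 shPAX6 libraries of DU145 cells, with circle, square and diamond for libraries 1, 2 and 3 and a bar for the mean ± SD. The groups overlap for KMT5C, SMYD5, KMT5B, EZH2 and KMT2D and are apart for KMT5A, HDAC5, HDAC11, KDM2B, KDM6B, EZH1 and KDM4A, and KDM4A and KMT2D show the wide range of the shPAX6 libraries.

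Across all members, 72 passed the filter of a mean of at least 0.5 FPKM. PRMT8, a neural arginine methyltransferase, and SMYD1, a muscle methyltransferase, were listed at 0 in all 6 libraries, and TET1 stayed between 0.0199 and 0.180 FPKM. Of the 72, 0 passed the adjusted p of 0.05 in limma, against 163 of all 13574 features (1.20%). At an unadjusted p under 0.05, 10 members were lower in shPAX6 (13.9%, against 14.1% of all features) and 0 were higher (4.15% of all features). The shPAX6 values lay entirely below the shCON values for 16 members (22.2%, against 20.0% of all features) and entirely above for 1 member, SIRT4 (6.70% of all features). These shares lie near the background of the whole table or below it. The median log2 fold change of the members was -0.22, with 55 of 72 below 0, beside a median of -0.12 and 62.9% below 0 over all features.

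Class IIa histone deacetylases shuttle between nucleus and cytoplasm and recruit corepressors. HDAC5 of this class (chromosome 17, 42154114 to 42201070, minus strand) had the smallest p of the members, at 8.58, 8.17 and 9.73 FPKM in shCON and 4.65, 4.81 and 4.99 FPKM in shPAX6. The groups were far apart and the shPAX6 libraries lay close together. The log2 fold change was -0.86 (SE 0.16), with an adjusted p of 0.0539 (limma), just short of the threshold. HDAC7 was also lower in every shPAX6 library, at 18.4, 19.1 and 21.3 against 16.3, 17.0 and 16.03 FPKM, by a smaller log2 fold change of -0.25. HDAC4 (-0.54) and HDAC9, the highest of the class (0.28), overlapped between groups.

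HDAC11, the single class IV deacetylase (chromosome 3, 13521224 to 13547924, plus strand), was at 3.89, 5.11 and 4.79 FPKM in shCON and at 2.05, 2.52 and 2.71 FPKM in shPAX6. Again the groups were apart, with a log2 fold change of -0.89 (SE 0.21) and an adjusted p of 0.0880 (limma). HDAC6, the class IIb enzyme that deacetylates tubulin, was at 9.20, 9.40 and 10.4 FPKM against 5.79, 7.88 and 7.53 FPKM (log2 fold change -0.46, adjusted p = 0.227). HDAC10, which acts on polyamines, had the opposite sign at 0.14. Class I deacetylases, among them HDAC1 and HDAC2 of the NuRD, Sin3 and CoREST complexes, were near 0, from -0.18 for HDAC1 to 0.29 for HDAC8. HDAC2 was lowest in library 3 of both groups, with 16.5, 25.5 and 9.72 FPKM in shCON and 21.4, 24.2 and 11.7 FPKM in shPAX6.

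KDM2B, a demethylase of H3 lysine 36 that also brings a variant Polycomb complex to CpG islands (chromosome 12, 121866899 to 122018928, minus strand), had the largest difference of the members. It was at 7.49, 7.13 and 7.85 FPKM in shCON and at 2.87, 4.60 and 3.85 FPKM in shPAX6. The groups did not overlap, and the log2 fold change was -0.995 (SE 0.21) with an adjusted p of 0.0712 (limma). KDM6B, which removes methyl groups from H3 lysine 27 (chromosome 17, 7737535 to 7758114, plus strand), was at 4.97, 5.55 and 6.31 FPKM against 2.11, 4.28 and 2.89 FPKM, with a log2 fold change of -0.89 and an adjusted p of 0.158. Its paralog KDM6A, at 1.66, 1.47 and 1.48 against 0.847, 1.90 and 1.33 FPKM, overlapped between groups, and the ratio of KDM6A to KDM6B was higher in every shPAX6 library (0.401 to 0.461) than in every shCON library (0.235 to 0.333). The transcripts of KDM6A and KDM6B have 36.4% and 62.2% GC, and the part of base composition in this ratio was not tested.

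The calls near the threshold depended on the shPAX6 libraries used. HDAC5, HDAC11 and KDM2B passed without shPAX6 library 1 (adjusted p = 0.0196 for HDAC5) and also without shPAX6 library 2 (adjusted p = 0.0329 for HDAC5), when KDM6B, KDM3B and SETD1A passed too. Calls over all features then stood at 924 and 899, against 163 (1.20%) with no library left out. With any other library left out, 0 members passed. The member calls in these settings are not read as a result about the members. With the GC correction the log2 fold changes were smaller, at -0.51 for HDAC5, -0.55 for HDAC11, -0.69 for KDM2B and -0.53 for KDM6B, and 0 members passed. The transcripts of these 4 genes have 57.8% to 62.2% GC, above the median of 49.4% of the members, and over the 72 members the log2 fold change was lower where GC was higher (Spearman's rho -0.43, and -0.36 over 12009 features, points that share their libraries). The part of base composition in these values was not tested beyond this correction.

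**Figure D2:**
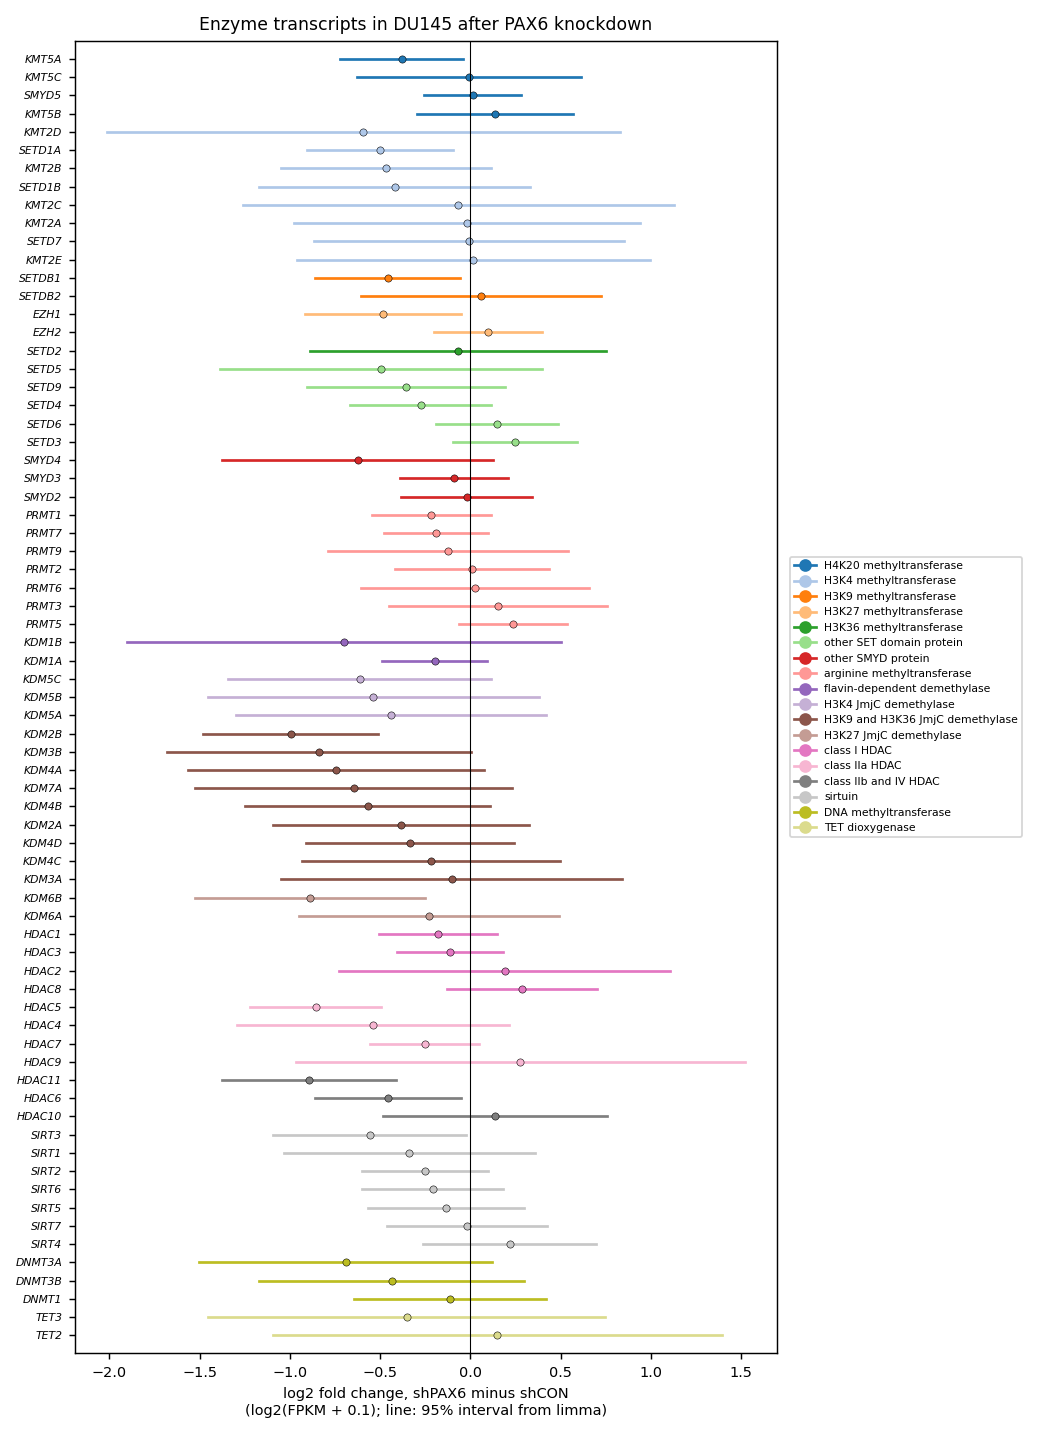
Log2 fold changes (horizontal axis, shPAX6 minus shCON on log2(FPKM + 0.1)) of the tested enzymes of DU145 cells with 95% limma intervals, ordered and coloured by class. The values run from -0.995 for KDM2B to 0.29 for HDAC8, and all demethylases lie left of 0 on this scaling (15 of 16 after median centring), most with intervals that cross it.

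Apart from KDM5D, whose values are not given, all 16 KDM demethylases of the chosen set had a log2 fold change below 0 in shPAX6. Over all features 62.9% were below 0 in this way. The 16 values ran from -0.10 for KDM3A to -0.995 for KDM2B with a median of -0.55, and 0 of them passed the adjusted test. The groups did not overlap for 4 of the 16 (KDM1A, KDM2B, KDM4A and KDM6B), beside 20.0% of all features that were lower in this way. KDM8, which the symbol rule leaves out and which is named after its values were seen, was at 1.68, 1.28 and 1.77 FPKM in shCON and at 1.92, 2.25 and 2.06 FPKM in shPAX6. It lay higher in every shPAX6 library, with a log2 fold change of 0.39 that did not pass (limma, adjusted p = 0.419). The direction held for 16 of 16 with the GC correction (median -0.38), for 15 of 16 after median centring (median -0.38) or quantile normalization (median -0.31), for 14 of 16 with a correction for transcript length (median -0.37) and for 13 of 16 without shPAX6 library 1, when the median was -0.17. Median centring moved the median of all features from -0.12 to 0.058.

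Among the flavin-dependent enzymes, which act on mono- and dimethylated H3 lysine 4, KDM1A was at 37.2, 37.9 and 37.4 FPKM in shCON and at 30.0, 32.2 and 36.2 FPKM in shPAX6. These values were apart, by a small log2 fold change of -0.20. KDM1B reached only 1.80 FPKM in shPAX6 library 1 but 9.06 in library 2, above all shCON values (-0.70). KDM4A, a demethylase of H3 lysines 9 and 36, was at 11.6, 11.3 and 12.4 FPKM against 3.81, 10.9 and 8.11 FPKM, and KDM3B, which acts on H3 lysine 9, was at 11.8, 10.9 and 12.9 against 3.66, 11.1 and 6.97 FPKM (log2 fold changes -0.74 and -0.84). The H3 lysine 4 demethylases lay between -0.44 for KDM5A and -0.61 for KDM5C, and each overlapped between groups.

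In each of these 16 genes shPAX6 library 1 was the lowest of the shPAX6 libraries, and in 13 library 2 was the highest. Library 1 was also the lowest for 52 of all 72 members and for 7863 of the 13574 features, and library 2 the highest for 45 members and 6852 features. The spread between shPAX6 libraries followed transcript length. Over the 72 members, the log2 difference of library 2 minus library 1 was larger for genes with a longer annotated transcript (Spearman's rho 0.68, and 0.62 over 12009 features). In the 24 members with the shortest transcripts (1217 to 4369 bases) the median difference was 0.076, in the middle 24 (4405 to 6724 bases) it was 0.46, and in the 24 longest (6728 to 20686 bases) it was 1.44. The groups were apart in either direction for 5, 11 and 1 members of these sets, where 20.0% of all features were apart on the lower side and 6.70% on the higher side.

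**Figure D3:**
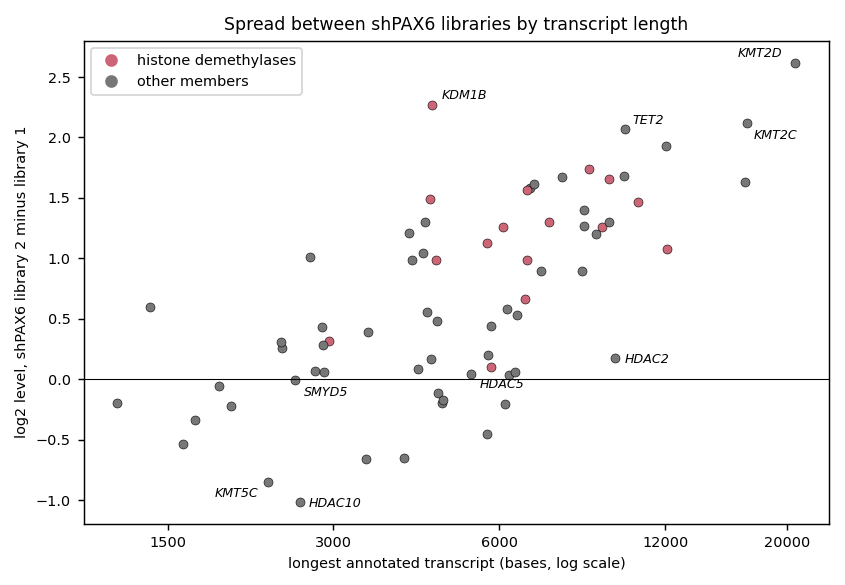
Difference of log2 level between shPAX6 libraries 2 and 1 (vertical axis) against the longest annotated transcript in bases (horizontal log axis) for the tested enzymes, with demethylases in red. The difference rises from about 0 for short transcripts such as SMYD5 to 2.62 for KMT2D.

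Among the tested members KMT2D had the widest spread between shPAX6 libraries, followed by the DNA demethylase TET2 (5.24-fold between the highest and the lowest library) and by KDM1B (5.04-fold). KMT2D, an H3 lysine 4 methyltransferase and a subunit of an enhancer-bound COMPASS-like complex, was at 4.95, 4.16 and 7.91 FPKM in shCON and at 1.44, 9.37 and 3.34 FPKM in shPAX6, so that the shPAX6 libraries alone spanned 6.5-fold. Its log2 fold change of -0.59 had an interval from -2.01 to 0.83. Its partner paralog KMT2C was at 1.20, 1.10 and 1.68 against 0.550, 2.73 and 1.20 FPKM, also with full overlap. The ratio of KMT2C to KMT2D, taken within each library, was 0.242, 0.263 and 0.212 in shCON and 0.382, 0.291 and 0.360 in shPAX6, higher in every shPAX6 library (exact permutation test, p = 0.1, the smallest possible). Their transcripts have 45.0% and 59.7% GC, and the part of base composition in this ratio was not tested. Of the 8 H3 lysine 4 methyltransferases 7 had a log2 fold change below 0, beside 62.9% of all features. That count was 4 of 8 after median centring or with the GC correction, and 3 of 8 without shPAX6 library 1. KMT2E was the highest at 0.017. SETD1A (-0.50, limma, adjusted p = 0.197) was the single member of the class with groups apart, at 14.1, 14.9 and 16.1 against 8.94, 13.0 and 10.2 FPKM.

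Of the writers of repressive H3 marks, EZH1 and EZH2, the alternative catalytic subunits of Polycomb repressive complex 2, differed from each other. EZH1 was at 7.65, 6.55 and 7.22 FPKM in shCON and at 4.21, 5.94 and 5.18 FPKM in shPAX6 (log2 fold change -0.49, adjusted p = 0.228), with every shPAX6 value lower. EZH2 was at 26.3, 25.4 and 22.7 against 24.8, 27.9 and 26.8 FPKM, with overlap (0.095). The ratio of EZH2 to EZH1 was 3.44, 3.87 and 3.14 in shCON and 5.88, 4.69 and 5.17 in shPAX6, apart in all libraries (exact permutation test, p = 0.1, and 0.175 after adjustment over the 7 paralog pairs compared). Both transcripts are of similar length (4633 and 4502 bases), while their GC content is 50.6% and 40.8%. The H3 lysine 9 methyltransferase SETDB1 was at 15.2, 15.0 and 15.7 against 9.14, 13.5 and 11.1 FPKM (-0.46, adjusted p = 0.224), lower in each library, while SETDB2, at most 0.959 FPKM, overlapped (0.060).

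SETD2, which trimethylates H3 lysine 36, was at 4.39, 3.76 and 5.37 against 2.58, 6.97 and 4.26 FPKM, an overlap with a log2 fold change of -0.066. Among the other SET domain proteins the range was from -0.49 for SETD5 to 0.25 for the actin histidine methyltransferase SETD3. SMYD4 (-0.62) and SMYD2 (-0.020) marked the ends of the other SMYD proteins. The arginine methyltransferase PRMT1, which provides most asymmetric arginine methylation, was at 235, 253 and 237 FPKM in shCON and at 227, 179 and 222 FPKM in shPAX6 (-0.22, the lowest of the class), and the groups were apart. PRMT5, the main enzyme of symmetric dimethylation, was the highest of the class at 0.24, with 69.3, 64.0 and 64.8 against 69.1, 82.8 and 82.2 FPKM, where shPAX6 library 1 lay within the shCON range.

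Sirtuins, which use NAD+ to remove acetyl and related groups, had a log2 fold change below 0 for 6 of 7 members (median -0.21), and SIRT4 was the exception. Over all features 62.9% were below 0. The sirtuin count was 4 of 7 after median centring and 3 of 7 with the GC correction, where the median was 0.084. SIRT3 of the mitochondria was at 8.97, 9.87 and 10.7 FPKM against 5.49, 5.74 and 9.29 FPKM, where shPAX6 library 3 overlapped the shCON range (-0.56, adjusted p = 0.255). SIRT4 was higher in every shPAX6 library, at 1.57, 1.51 and 1.46 against 1.89, 1.63 and 1.81 FPKM, by a log2 fold change of 0.22 that did not pass (adjusted p = 0.640). For the enzymes of DNA, the maintenance methyltransferase DNMT1 was at 63.1, 61.4 and 71.2 FPKM against 42.2, 78.8 and 65.7 FPKM (-0.11), and the de novo enzymes DNMT3A and DNMT3B were at -0.69 and -0.44, all with overlap. TET2 (0.15) and TET3 (-0.35), which oxidise methylcytosine, also overlapped, and the ratio of TET2 to TET3 was 0.439, 0.369 and 0.450 in shCON and 0.611, 0.733 and 0.4997 in shPAX6, apart in all libraries (exact permutation test, p = 0.1). Their transcripts have 43.0% and 53.2% GC, and here too the part of base composition was not tested. The remaining ratios, HDAC1 to HDAC2 (p = 0.5) and DNMT3A to DNMT3B (p = 0.2 in the same exact test), overlapped between groups.

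Genes that work with these enzymes gave a like picture in DU145, with 0 passing the adjusted test in limma in each list named here. Of 19 tested corepressor partners of the deacetylases, 12 were below 0 (median -0.16) and 4 of them had an unadjusted p under 0.05, where 62.9% of all features were below 0 and 14.1% were lower at such a p. These include MTA1 of the NuRD complex, at 55.8, 58.3 and 65.6 against 35.6, 42.7 and 44.6 FPKM, which was lower in every shPAX6 library (log2 fold change -0.55, adjusted p = 0.105). Of 10 partners of Polycomb repressive complex 2, 8 were below 0 (median -0.12, 0 with an unadjusted p under 0.05), and of 11 COMPASS partners, 10 were below 0 (median -0.20, 1 such p). Of 18 tested methyltransferases and demethylases with other names, 14 were below 0 (median -0.40, 5 such p). Among these EHMT2, an H3 lysine 9 dimethyltransferase, was at 27.6, 26.3 and 29.6 against 19.1, 18.8 and 20.1 FPKM, again without overlap (-0.52, adjusted p = 0.0895). The alternative scalings and corrections were not applied to the lists of this paragraph.

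In LNCaP cells each gene is given as log2(CPM + 0.1) in LNCaP-ENZ minus that in parental cells. Intervals are 95% Clopper-Pearson intervals that cover counting error only. A mean of at least 1 CPM was reached by 71 members. Of these, 3 were lower by more than 2-fold with an interval that leaves out 0 (9.57% of all 14767 genes) and 0 were higher (1.84% of all genes). The median log2 ratio of the members was -0.20, beside -0.15 over all genes. Setting the median of all expressed genes to 0 put the members at -0.046.

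The 3 lower members were a demethylase and 2 lysine methyltransferases. KDM7A, a demethylase of H3 lysines 9 and 27, had 570 counts in parental cells and 142 in LNCaP-ENZ, a log2 ratio of -1.80 (interval -2.09 to -1.55). SETDB2, a methyltransferase assigned to H3 lysine 9, had 478 and 164 counts (-1.34, interval -1.62 to -1.09). KMT5B had 327 and 136 counts (-1.07, interval -1.38 to -0.78). All 3 transcripts are rich in A and T, with 38.3% to 40.3% GC, and over 11975 genes the log2 ratio was higher where GC was higher (Spearman's rho 0.39, and 0.29 over the 71 members, points that share their libraries). With a loess correction for GC, KDM7A was at -1.19, SETDB2 at -0.85 and KMT5B at -0.54, so that KDM7A alone remained past 2-fold. A correction for gene length gave -1.33, -0.95 and -0.63.

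Of the 4 H4 lysine 20 enzymes, KMT5A, KMT5B and KMT5C had ratios below 0 and SMYD5 was above 0. SMYD5 had 467 counts in parental cells and 690 in LNCaP-ENZ, the highest ratio of all members at 0.75 (interval 0.58 to 0.93), and stood between 0.73 and 0.90 in each alternative tried. KMT5C had 395 and 292 counts (-0.24, interval -0.47 to -0.02). KMT5A had 1225 and 1015 counts, a log2 ratio of -0.081 with an interval from -0.20 to 0.04, and its sign turned with the scaling (0.073 with the median of expressed genes set to 0). In DU145, SMYD5 was at 0.014 and KMT5B was at 0.14, and the cell lines share no treatment.

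**Figure D4:**
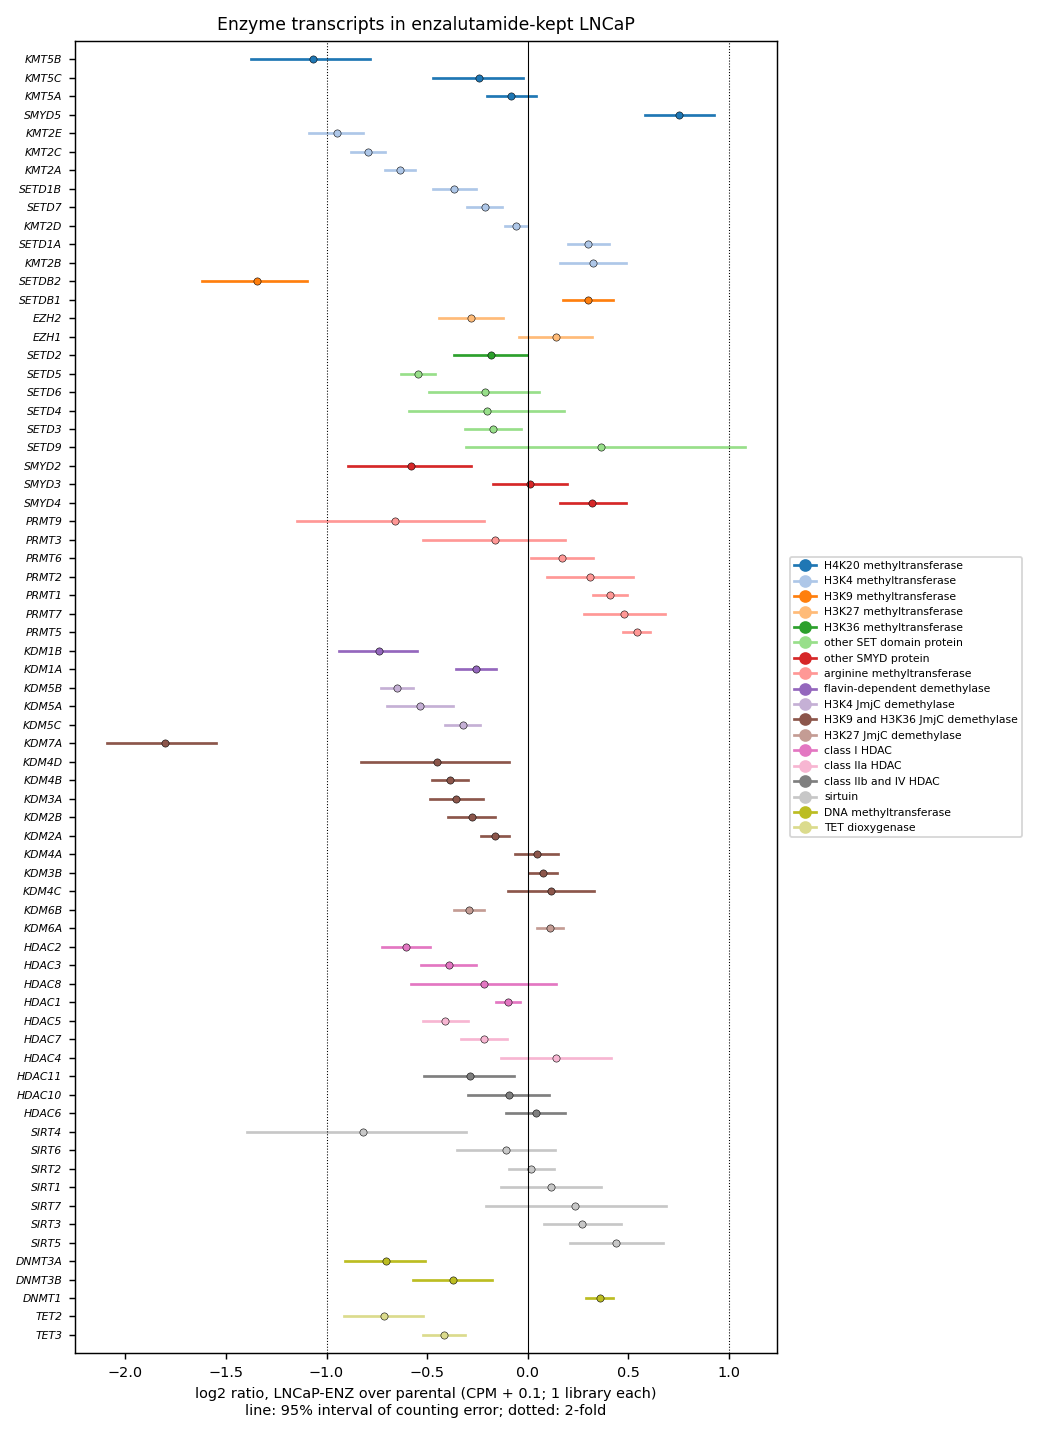
Log2 ratios (horizontal axis, LNCaP-ENZ over parental, CPM + 0.1) of the enzymes with a mean of at least 1 CPM, 1 library per arm, with 95% intervals of counting error and dotted lines at 2-fold. KDM7A, SETDB2 and KMT5B lie past 2-fold on the lower side, and SMYD5 and the arginine methyltransferases PRMT5, PRMT7 and PRMT1 lie highest on the upper side together with SIRT5.

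Arginine methyltransferases were higher for 5 of 7 members in LNCaP-ENZ, with a median log2 ratio of 0.31, and for 5 or 6 in each alternative tried. PRMT5 had 3121 and 3981 counts (0.54, interval 0.47 to 0.61), PRMT1 had 2041 and 2373 (0.41), and PRMT7 had 372 and 455 (0.48). PRMT9, which methylates a splicing factor, was the lowest at -0.66 with 113 and 62 counts. These libraries have no replicates, so the ratios describe the 2 libraries and not the condition.

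H3 lysine 4 methyltransferases were lower for 6 of 8 members, beside 62.3% of all genes with a ratio below 0. KMT2E (1469 and 666 counts, -0.95), KMT2C (3345 and 1692, -0.79) and KMT2A (4106 and 2321, -0.63) were the lowest, while KMT2B was at 0.32 and SETD1A at 0.30. The count of lower members was 3 of 8 with the length correction. KMT2D, with 6222 and 5230 counts, was at -0.061.

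Of the 16 demethylases, 12 were lower in LNCaP-ENZ (median -0.31), and 8 were with the length correction, where 63.4% of the members and 62.3% of all genes were lower without it. KDM1B was at -0.74 and KDM1A at -0.26 among the flavin-dependent enzymes. KDM5B had 3637 and 2030 counts (-0.65) and KDM5C 2570 and 1801 (-0.32), the ends of the H3 lysine 4 demethylases. KDM4C was the highest of the enzymes for H3 lysines 9 and 36 at 0.11, with an interval that holds 0. KDM6A, at 0.11, and KDM6B, at -0.29, had opposite signs.

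All 4 class I deacetylases had ratios below 0, from -0.10 for HDAC1 (4846 and 3969 counts) to -0.61 for HDAC2 (1558 and 897), although with the median of expressed genes set to 0 this held for 3 of 4, and with the GC correction for 1 of 4. HDAC5 (-0.41) and HDAC4 (0.14) were the ends of class IIa, and HDAC11 (-0.29) and HDAC6 (0.040) those of classes IIb and IV. SIRT4 had 90 and 44 counts (-0.82) and SIRT5, a desuccinylase of mitochondria, 286 and 340 (0.44). DNMT1 had 3305 and 3710 counts (0.36) while DNMT3A had 597 and 320 (-0.71), and TET2 (-0.71) was below TET3 (-0.42).

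Of the remaining classes, SETDB1 was at 0.30, opposite in sign to SETDB2. EZH1 (0.14) and EZH2 (-0.28) had opposite signs too, and SETD2 was at -0.18. SETD9, with 35 and 40 counts, and SETD5, with 3092 and 1857, were the ends of the other SET domain proteins (0.36 and -0.55). SMYD4 was at 0.32 and SMYD2 at -0.58. PRMT8 and SMYD1 had 0 counts in both libraries, HDAC9 had 0 and 1, and TET1 had 25 and 11, under the filter.

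Partners of Polycomb repressive complex 2 were lower for 8 of 10 genes in LNCaP-ENZ (median -0.41), beside 62.3% of all genes. The substoichiometric subunit JARID2, with 999 and 357 counts, was past 2-fold lower (-1.29), and the core subunit SUZ12 had 1082 and 508 (-0.90). COMPASS partners were higher for 8 of 11 genes (median 0.17), with WDR5 at 1545 and 1994 counts (0.56). The GC and length corrections were not applied to these lists of partners, and the arms have no replicates. UHRF1, which guides DNMT1 to hemimethylated DNA, had 455 and 791 counts (0.98). The demethylase-like JMJD1C was the lowest of the enzymes with other names, at 1748 and 397 counts (-1.94).

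Levels per length were ordered in a different way in the DU145 and LNCaP tables. Cell line, unit and processing differ together between them, so their parts in the order cannot be told apart. In DU145 shCON cells, PRMT1 (242 FPKM), PRMT2 (72.7 FPKM) and PRMT5 (66.0 FPKM) ranked 1, 2 and 3 of the 74. In parental LNCaP, HDAC1 (118 TPM, a length-scaled share of transcripts) ranked 1, before PRMT1 (66.4 TPM) and PRMT5 (60.8 TPM). PRMT2 ranked 64 in LNCaP with 2.23 TPM. KDM6A ranked 4 in LNCaP with 34.4 TPM and 62 in DU145 with 1.54 FPKM. The tables were normalised separately, so only the order within a table is compared, and RN7SK, a short non-coding RNA, took 12.3% and 13.0% of the LNCaP counts.

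Of the 70 members with a value in both comparisons, 33 were lower in both, 4 higher in both, 12 lower in LNCaP-ENZ and higher in DU145 shPAX6, and 21 the reverse. Taken singly, 45 of the 70 were lower in LNCaP-ENZ and 54 of the 70 in DU145 shPAX6. The comparisons share no libraries and differ in cell line and treatment.

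**Figure D5:**
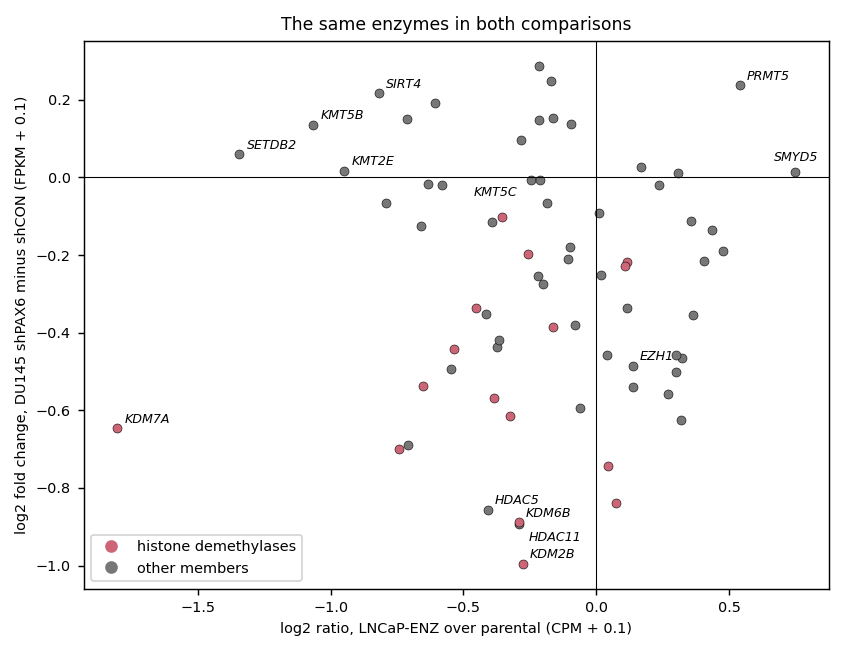
Log2 ratio in LNCaP (horizontal axis, LNCaP-ENZ over parental) against log2 fold change in DU145 (vertical axis, shPAX6 minus shCON) for enzymes measured in both, demethylases in red. KDM7A, SETDB2 and KMT5B stand apart on the LNCaP axis, and KDM2B, HDAC11, KDM6B and HDAC5 on the DU145 axis.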

How the data were processed

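The values that the authors deposited for DU145 were treated here as FPKM from StringTie after HISAT2 alignment to GRCh37. The LNCaP table holds whole-number counts and TPM as the authors deposited them, and the counter was not given in the sources used here. The submitters' processing notes also name STAR, without saying for which files. The DU145 table does not name its unit, and scaling of its values to transcript length and library size is an assumption. The labels describe poly-A selected TruSeq libraries and the methods oligo-dT priming. The 6 ATAC-seq samples were not used here. DU145 values were tested with limma 3.58.1 in R 4.3.3 (lmFit and eBayes with a trend) on log2(FPKM + 0.1), mean of at least 0.5 FPKM, two-sided, Benjamini-Hochberg adjustment over all features. A fold change on this scale understates that of low genes. Depth is unknown for DU145.

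LNCaP counts were scaled to CPM, with TMM factors (edgeR 4.0.16) as an alternative and no test, since there is 1 library per arm. Ratios of paralogs used exact permutation over libraries. Longest transcripts and their GC content came from the annotation lifted to GRCh37, and positions of DU145 genes too. The limma step was tested on simulated data. The simulation gave both groups the spread of the shCON libraries, so the wide spread between the shPAX6 libraries was not part of it. The members, classes and lists were chosen with earlier results of these data known. Named genes are the H4 lysine 20 enzymes, the highest and lowest value of each class, members past a threshold, paralog pairs, members under the filter, PAX6 and STAT5A. Other genes named with values were chosen after their values were seen. Same-numbered libraries were checked for pairing by the correlation of their deviations from group means, which was -0.17, -0.37 and 0.05, so the numbers were not used as pairs.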

Additional observations from a re-analysis of the deposited data

How the results depend on the processing

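In DU145, 0 members passed the adjusted test in limma with a pseudocount of 1 or 0.01, a mean of at least 1 FPKM, no filter, eBayes without a trend, the GC correction, the replicate block (0 members, 7 at an unadjusted p under 0.05, and 0 of all features) and that block combined with GC correction (0 members and 7 of all features). Quantile normalization and median centring each gave 1, KDM2B (adjusted p = 0.0359 and 0.0496). Corrections chosen after seeing the data gave 3 for length (HDAC11, KDM2B and KDM6B) and 2 for GC and length together (HDAC10 at 0.60, and KDM2B). Leaving out 1 library at a time gave 0 to 6. All features called numbered 163, against 108 without a filter, 100 with median centring, 911 with the length correction, 862 with GC and length, and 0 to 924 with 1 library left out. Shares of all features in these alternatives are not given here, so the counts of members are not read as a result about the members. The KMT5C log2 fold change turned positive with quantile normalization (0.14), median centring (0.17), the GC correction (0.41, also with the replicate block), the length correction (0.12) and both corrections (0.40), and ran from -0.19 to 0.24 with 1 library left out. SMYD5 ran from -0.018 to 0.039, the KMT5C to KMT5B log2 ratio from -0.40 to 0.18, and HDAC10 ran from -0.11 (without shPAX6 library 1) to 0.39. SETD1A was 0.042 with GC and length corrected. The median of the members stayed below 0 in each alternative (-0.42 to -0.10 with 1 library left out).

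In LNCaP, members past 2-fold numbered 3 with a pseudocount of 0.01, a mean CPM of at least 5 and no filter, 2 with a pseudocount of 1, TMM factors and the median set to 0 (KDM7A and SETDB2), and 1 with the length or the GC correction (KDM7A, corrections chosen after seeing the data). In the main setting 9.57% of all genes were past 2-fold lower and 1.84% higher. The shares in the alternatives are not given here, so these counts are not read as a result about the members. The median log2 ratio of the members was -0.057 with TMM factors, -0.046 with the median set to 0, 0.093 with the length and 0.0012 with the GC correction. KMT5A turned to 0.065, 0.073 and 0.094 with TMM factors, the median set to 0 and the length correction. KMT5B was -0.63 and -0.54 with the length and GC corrections. The causes were not tested.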

Other observations

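Transcripts of genes that supply cofactors to these enzymes were measured as well, and the cofactors themselves were not. Of 14 tested genes for methyl donors, NAD+ and 2-oxoglutarate in DU145, 11 had a log2 fold change below 0 (median -0.17), beside 62.9% of all features. The alternative scalings and corrections were not applied to this list. Of the 14, 0 passed the adjusted test in limma and 2 had an unadjusted p under 0.05 (14.1% of all features were lower at such a p). One of these was IDH2, the mitochondrial enzyme that makes 2-oxoglutarate, at 26.8, 28.5 and 31.02 FPKM in shCON and 17.2, 16.1 and 19.1 FPKM in shPAX6, lower in every library (log2 fold change -0.72, adjusted p = 0.0559), and the other was SHMT1 of folate metabolism (-0.56). In LNCaP-ENZ, 8 of 15 such genes were lower and 7 higher (median log2 ratio -0.042), beside 62.3% of all genes lower. The lowest was NAMPT, the rate-limiting enzyme of NAD+ salvage, with 760 counts against 1800 in parental cells (log2 ratio -1.05). MAT2A, which makes S-adenosylmethionine, had 2674 against 4583 (-0.59). MAT1A was the highest, with 564 against 458 (0.49).

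Histone acetyltransferases, which oppose the deacetylases, were below 0 for 10 of 11 genes in DU145 (median -0.24, 0 passing in limma and 0 at an unadjusted p under 0.05). Over all features 62.9% were below 0 and 14.1% were lower at such a p. The alternative scalings and corrections were not applied to the acetyltransferases. EP300 was at 4.53, 4.17 and 6.09 FPKM in shCON and at 0.9498, 6.61 and 2.94 FPKM in shPAX6, with full overlap. In LNCaP-ENZ, KAT2A had 2547 counts against 2047 (0.50) and KAT6B 378 against 721 (-0.74).

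Markers of proliferation were split in LNCaP-ENZ, with MCM5 at 3740 counts against 2044 (1.06) and TYMS at 2008 against 1338 (0.77), but TOP2A at 557 against 1480 (-1.22) and MKI67 at 2530 against 4595 (-0.67). The part of proliferation in the enzyme values was not tested.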
